A study of Mus musculus with 27 samples.

Results

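Vitamin A reaches skin cells as retinol and acts there as retinoic acid, and 9 genes that handle it on the way were followed here from anagen skin to cultures of hair follicle stem cells (HFSCs). Chosen by their role in the pathway, though with earlier results of these data known, these genes were Stra6, Rdh10, Dhrs3, Aldh1a1, Aldh1a2, Aldh1a3, Crabp1, Crabp2 and Cyp26b1. Each had a row both among the 51906 genes of the RNA-seq table and among the 32285 genes of the single cell matrices. Of the 27 samples in the series, 8 RNA-seq libraries and 4 single cell matrices with their 2 hashtag libraries bear on RNA levels. The RNA-seq libraries came from HFSC cultures of telogen mice at postnatal day 55, either wild-type or Rxra cKO, with 2 mice per genotype, each grown in medium with serum (FBS) and in medium with all-trans retinoic acid and a protein kinase C inhibitor (atRA+PKCi). Rxra cKO cells carried floxed Rxra and a YFP reporter that a tamoxifen-dependent Cre under the control of Sox9 switches. Every line had been established on growth-arrested feeder cells and was grown in 3D culture. The atRA+PKCi medium contains B-27 supplement where the other contains serum, so that serum, B-27, retinoic acid and the inhibitor changed together. These are not the only differences: the study also lists cholesterol-cyclodextrin in the atRA+PKCi medium and an added growth factor in the initial serum medium. The single cell matrices came from wild-type back skin of 2 mice in anagen VI, at postnatal day 32, and from HFSCs of the same 2 mice grown in 7 media that were told apart by hashtag antibodies.

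Retinol circulates bound to a carrier protein and is stored in cells as retinyl ester. A cell turns retinol into retinaldehyde in a reversible step and retinaldehyde into retinoic acid in an irreversible one, and cytochromes of the CYP26 family hydroxylate retinoic acid and so end its action. Retinoic acid binds the receptors RAR, which sit on DNA as heterodimers with RXR, and in many tissues it raises the expression of the genes that lower its own level, a feedback in which Dhrs3 and the Cyp26 genes are the best known examples. In hair follicles the supply of retinoids is known to affect growth, quiescence and lineage choice of stem cells.

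Among the 9 genes, STRA6 is the membrane receptor through which cells take up retinol from its carrier. RDH10 oxidizes retinol to retinaldehyde, and DHRS3 reduces retinaldehyde back to retinol. The 3 aldehyde dehydrogenases ALDH1A1, ALDH1A2 and ALDH1A3 make retinoic acid from retinaldehyde. CRABP1 and CRABP2 bind retinoic acid in the cytosol, CRABP2 being known for handing it to the receptor. CYP26B1 hydroxylates retinoic acid. On the mouse genome GRCm38 the genes lie at chr9:58063788-58153996 (Stra6, plus strand), chr1:16105774-16133734 (Rdh10, plus), chr4:144892827-144928209 (Dhrs3, plus), chr19:20492715-20643465 (Aldh1a1, plus), chr9:71215789-71296243 (Aldh1a2, plus), chr7:66390890-66427517 (Aldh1a3, minus), chr9:54764748-54773110 (Crabp1, plus), chr3:87948666-87953376 (Crabp2, plus) and chr6:84571414-84593908 (Cyp26b1, minus).

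Total counts per RNA-seq library ranged from 25150300 to 35879800, and 5 of the 6 keratinocyte markers had counts in all 8 libraries, with summed levels of the 6 between 16182 and 36199 CPM (counts per 1000000 counts of the library). The exception, Epcam, had 0 counts in 4 libraries and at most 1.51 CPM in the others. Of 5 HFSC markers 4 passed the filter on low counts, and their sum was 85.7 to 115 CPM in the 4 FBS libraries, 341 to 345 CPM in Rxra cKO atRA+PKCi and 4589 to 4751 CPM in wild-type atRA+PKCi. With FBS that sum was mostly Sox9, at 70.1 to 105 CPM, while Krt15 was at 3.65 to 8.23 CPM. With atRA+PKCi it was mostly Krt15, at 4576 and 4430 CPM for wild-type cells and 251 and 245 CPM for Rxra cKO cells. Nfatc1 fell with that medium in wild-type, from 6.42 and 4.597 CPM to 0.834 and 1.49 CPM. Cd34 was between 0.385 and 2.91 CPM, and Lhx2 had at most 3 counts in any library. The part of these markers in the results on retinoid genes was not tested. Markers of fibroblasts, the type of the feeder cells, summed to between 1.35 and 11.6 CPM in every library, with Lum at 0 throughout. Rxra itself was at 149 and 122 CPM in the wild-type libraries from FBS and at 147 and 143 CPM in those from atRA+PKCi, and in Rxra cKO at 97.2 and 95.7 CPM with FBS and at 148 and 145 CPM with atRA+PKCi. Since the gene total also counts exons outside the floxed part, these values do not check the deletion.

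Receptors for retinoic acid recognize paired hexamers in DNA. The upstream sequences of Dhrs3, Stra6 and Cyp26b1 are shown because these members rose with the retinoic acid medium in the wild-type cultures described next, and those of Cyp26a1 and Rarb because, among windows given for 30 other retinoid genes, theirs hold such a pair with a spacer of 5 bases. RefSeq start sites (build GRCm38.p6) were given for 6 of the 9 genes, in 12 windows of 250 bases before to 50 after the start, and Rdh10, Crabp2 and Aldh1a3 are named only. The search covered direct repeats of the hexamer AGGTCA, the variant AGTTCA, the variant GGGTCA and the variant GGTTCA on both strands, with spacers of 5, 2 or 1 bases (DR5, DR2, DR1). A window of a further retinoid gene, Bco1, held a DR1. No such repeat was found in any of the 12 windows, and over all 32851 windows of the genome 0.588% held one (DR5 0.0974%, DR2 0.268%, DR1 0.222%). No match says only that these letters are not in these windows. Capitals mark the hexamers, and the Dhrs3, Stra6 and Cyp26b1 sequences, which hold none, are in lower case throughout.
Dhrs3, chr4:144892577-144892826, plus strand, the 250 bases before the start: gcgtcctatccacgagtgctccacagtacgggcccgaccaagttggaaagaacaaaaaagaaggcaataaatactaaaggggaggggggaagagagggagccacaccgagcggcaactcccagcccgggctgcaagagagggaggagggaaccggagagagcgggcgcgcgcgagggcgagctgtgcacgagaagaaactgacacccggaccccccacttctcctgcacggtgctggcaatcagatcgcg
Stra6, chr9:58128838-58129087, plus strand, the 250 bases before a RefSeq start inside the annotated gene: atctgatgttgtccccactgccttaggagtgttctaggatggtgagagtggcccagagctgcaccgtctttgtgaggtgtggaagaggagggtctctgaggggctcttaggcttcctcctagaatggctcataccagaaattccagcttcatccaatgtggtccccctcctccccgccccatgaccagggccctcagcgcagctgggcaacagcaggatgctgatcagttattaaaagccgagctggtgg
Cyp26b1, chr6:84593909-84594060, minus strand, 152 bases ending 98 bases before the RefSeq start: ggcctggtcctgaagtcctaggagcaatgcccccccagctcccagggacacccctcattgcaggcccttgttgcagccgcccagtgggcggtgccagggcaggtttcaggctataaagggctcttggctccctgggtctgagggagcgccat
Cyp26a1, chr19:37697770-37697798, plus strand, with its DR5: taaagaTGAACTttgggTGAACTaatttg
Rarb, chr14:16575507-16575535, minus strand, with its DR5: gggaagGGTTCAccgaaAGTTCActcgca
The genes with these 2 elements gave few reads in HFSC cultures: Cyp26a1 had 0 counts in all 8 libraries, and Rarb had between 1 and 31.

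In wild-type HFSCs, the change from FBS to atRA+PKCi raised the receptor for retinol uptake (Stra6), the reductase that returns retinaldehyde to retinol (Dhrs3) and the hydroxylase that removes retinoic acid (Cyp26b1), and lowered the synthesizing dehydrogenase that these cells express most (Aldh1a3) to below 1 CPM. Of the 9 genes 8 passed the filter and 7 of these changed at an adjusted p under 0.05, 4 upward and 3 downward, where 53.9% of the 15965 genes tested changed (27.2% higher, 26.6% lower). The median log2 fold change was 0.82 over the 8 genes and 0.03 over all genes tested. All adjusted p-values for these libraries are from edgeR's quasi-likelihood test with Benjamini-Hochberg adjustment over the 15965 genes, and bulk levels do not tell fewer cells of a kind from less RNA per cell.

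Stra6 stood at 69.2 and 65.5 CPM in wild-type FBS and at 297 and 253 CPM in wild-type atRA+PKCi. Both atRA+PKCi cultures were thus far above both FBS cultures, and the log2 fold change was 2.03 (SE 0.09, adjusted p = 3.12e-07, edgeR). The gene overlaps Ccdc33 and the antisense Gm16131 and a strand setting is not given in the sources used here, so that its reads may include some of theirs.

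For the reversible step, Dhrs3 was at 7.88 and 6.53 CPM in wild-type FBS and at 191 and 183 CPM in wild-type atRA+PKCi. The groups did not overlap, and the log2 fold change of 4.69 (SE 0.10, adjusted p = 1.1e-08, edgeR) was the largest increase among the 8 genes. Its counterpart Rdh10 moved little, from 12.7 and 14.4 CPM to 9.43 and 9.09 CPM, a log2 fold change of -0.55 (SE 0.20, adjusted p = 0.0425, edgeR). The Rdh10 call was lost without any 1 of the 4 wild-type libraries (-0.64 to -0.46), without either Rxra cKO atRA+PKCi library, and with limma on the deposited normalized values. Per kilobase of exon, Dhrs3 went from a mean of 2.46 to 63.8 CPM per kb while Rdh10 went from 3.26 to 2.23 CPM per kb. The order of these 2 genes was thus opposite in the 2 media, which need not hold for the step as a whole. Some other enzymes of the step had more RNA in wild-type FBS. Rdh11, which reduces retinaldehyde, was at a mean of 47.8 CPM per kb there. Sdr16c6 and Dhrs9, which oxidize retinol, were at 12.6 and 5.03 CPM per kb.

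The 3 dehydrogenases that make retinoic acid differed in level and direction. Aldh1a3 was at 56.4 and 68.8 CPM in wild-type FBS and at 0.641 and 0.380 CPM in wild-type atRA+PKCi. Every FBS value was above every atRA+PKCi value, with a log2 fold change of -6.93 (SE 0.23, adjusted p = 4.88e-08, edgeR). Aldh1a1 was low throughout, at 0.438 and 0.193 CPM in FBS and 1.19 and 1.11 CPM in atRA+PKCi, and rose by a log2 fold change of 1.84 (SE 0.45, adjusted p = 0.00778, edgeR). Aldh1a2 did not pass the filter, with 0 counts in 6 of the 8 libraries and 1 and 2 counts in the other two. Per kilobase, Aldh1a3 made up nearly all of the dehydrogenase RNA in FBS (13.6 CPM per kb against 0.0639 for Aldh1a1), whereas in atRA+PKCi the 2 genes were both low (0.111 and 0.232 CPM per kb). The Aldh1a1 call was lost without wild-type FBS replicate 2 (1.38) and with DESeq2, and the gene overlaps C730002L08Rik and Gm6684 on the other strand.

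Of the binding proteins, Crabp2 was the abundant one and was at 47.3 and 59.5 CPM in wild-type FBS and at 57.0 and 57.2 CPM in wild-type atRA+PKCi. Its groups overlapped and its log2 fold change of 0.10 (SE 0.13, adjusted p = 0.553, edgeR) did not pass. Crabp1 fell from 1.57 and 1.78 CPM to 0.257 and 0.127 CPM, a log2 fold change of -3.10 (SE 0.38, adjusted p = 0.000147, edgeR). Cyp26b1 went from 27.9 and 21.0 CPM in FBS to 72.6 and 69.5 CPM in atRA+PKCi, a log2 fold change of 1.54 (SE 0.13, adjusted p = 1.33e-05, edgeR). It was the only CYP26 gene that passed the filter, Cyp26a1 and Cyp26c1 both having 0 counts in all 8 libraries, which allows up to 0.0786 to 0.116 CPM (3 counts per library).

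**Figure D1:**
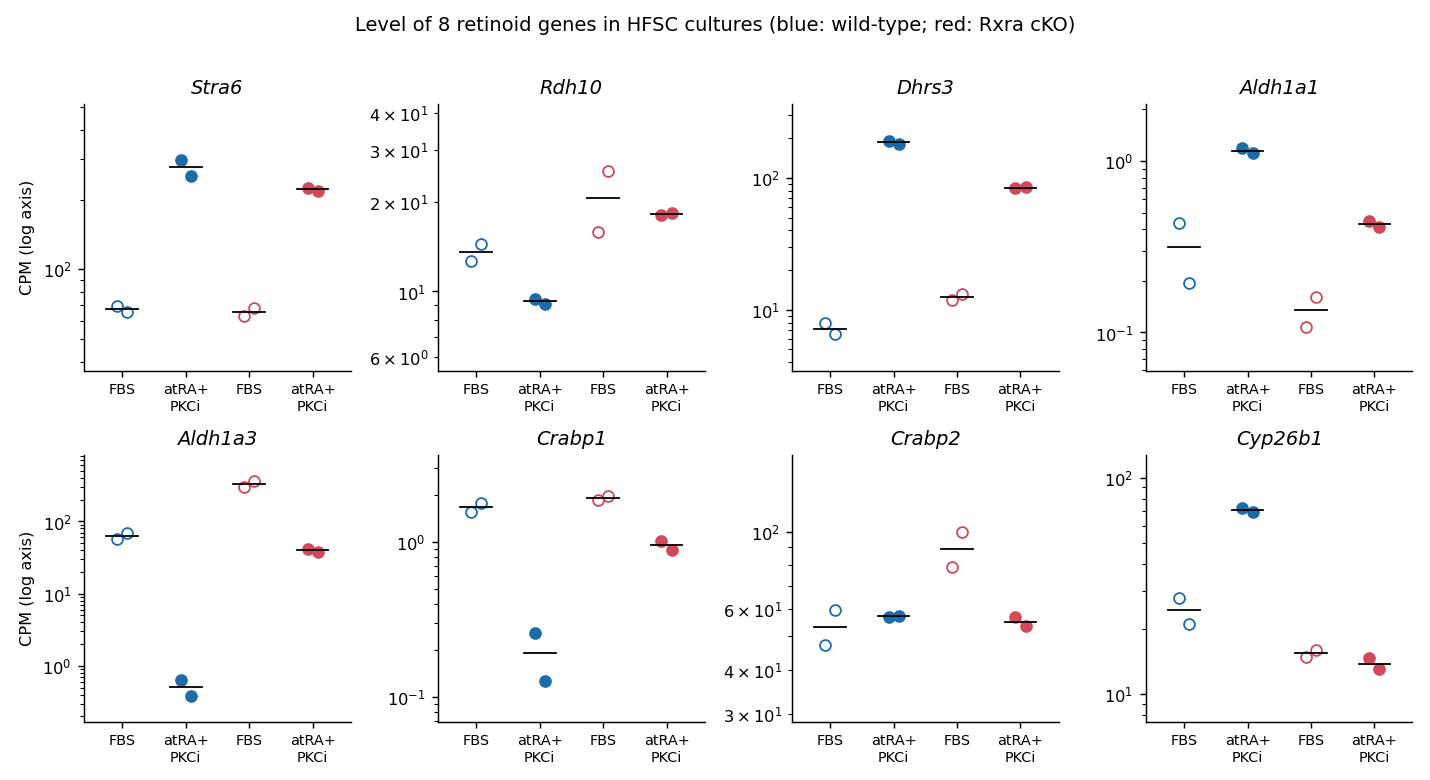
Levels of the 8 genes that passed the filter, in CPM on log axes, in each of 8 HFSC libraries (points, 2 per group; blue for wild-type, red for Rxra cKO). Dhrs3 and Stra6 are higher in atRA+PKCi in both genotypes, Aldh1a3 falls from 56.4 and 68.8 CPM to below 1 CPM in wild-type and to 41.7 and 38.3 CPM in Rxra cKO, and Cyp26b1 is higher in atRA+PKCi in wild-type cells.

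In Rxra cKO cultures the same change of medium moved 6 of the 8 genes, 3 upward and 3 downward, where 43% of all genes tested changed (20.8% higher, 22.2% lower). The median log2 fold change over the 8 genes was -0.17, and 0.02 over all genes. Stra6 and Dhrs3 rose and Aldh1a3 fell in these cells too, while Cyp26b1 and Rdh10 did not pass the test.

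Dhrs3 was at 11.9 and 13.3 CPM in Rxra cKO FBS and at 83.8 and 84.9 CPM in Rxra cKO atRA+PKCi, a log2 fold change of 2.74 (SE 0.09, adjusted p = 2.93e-07, edgeR). Both values in atRA+PKCi were below both wild-type values in the same medium. The medium effect on Dhrs3 was 1.95 larger on the log2 scale in wild-type than in Rxra cKO (SE 0.13, adjusted p = 2.66e-05 for the interaction, edgeR). Stra6 rose from 63.2 and 68.4 CPM to 225 and 218 CPM, by a log2 fold change of 1.75 (SE 0.09, adjusted p = 1.82e-06, edgeR), and its interaction of 0.28 (SE 0.13, adjusted p = 0.146) did not pass.

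Cyp26b1 was at 14.8 and 16.0 CPM in Rxra cKO FBS and at 14.67 and 13 CPM in Rxra cKO atRA+PKCi. The lower FBS value lay just above the higher atRA+PKCi value, with a log2 fold change of -0.15 (SE 0.13, adjusted p = 0.394, edgeR), and the interaction was 1.69 (SE 0.18, adjusted p = 0.000325, edgeR). Within atRA+PKCi, Cyp26b1 was lower in Rxra cKO by a log2 fold change of -2.36 (SE 0.13, adjusted p = 2.54e-06, edgeR), and within FBS by -0.66 (SE 0.13, adjusted p = 0.00367).

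Aldh1a3 stood at 297 and 364 CPM in Rxra cKO FBS and at 41.7 and 38.3 CPM in Rxra cKO atRA+PKCi. It fell by 3.04 on the log2 scale (SE 0.14, adjusted p = 9.2e-07, edgeR), less than in wild-type by 3.88 (SE 0.30, adjusted p = 4.91e-05 for the interaction). It was higher in Rxra cKO than in wild-type in both media, by a log2 fold change of 2.40 in FBS (SE 0.13, adjusted p = 3.9e-06) and 6.28 in atRA+PKCi (SE 0.23, adjusted p = 2.96e-07, edgeR). Aldh1a1 rose from 0.108 and 0.162 CPM to 0.445 and 0.410 CPM (log2 fold change 1.63, SE 0.54, adjusted p = 0.0385, edgeR), a call that was lost with DESeq2, with the mouse as a block, and without any 1 of the 4 Rxra cKO libraries (1.41 to 1.95) or of the 2 wild-type atRA+PKCi libraries.

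Crabp2 moved in Rxra cKO where it had not passed in wild-type, from 79.1 and 99.6 CPM in FBS to 56.8 and 53.5 CPM in atRA+PKCi, a log2 fold change of -0.70 (SE 0.13, adjusted p = 0.00253, edgeR). The interaction was 0.80 (SE 0.18, adjusted p = 0.0138) and was lost without either Rxra cKO atRA+PKCi library (0.80 and 0.75). Crabp1 went from 1.87 and 1.98 CPM to 1.02 and 0.894 CPM, a log2 fold change of -0.998 (SE 0.31, adjusted p = 0.0281, edgeR) against -3.10 in wild-type, with an interaction of -2.10 (SE 0.49, adjusted p = 0.0147). The Crabp1 call in Rxra cKO was lost with DESeq2, with limma on the deposited normalized values, with the mouse as a block (-1.001, adjusted p = 0.0592) and without any 1 of the 4 Rxra cKO libraries (-1.08 to -0.91), and the interaction was lost with DESeq2 (-2.16) and without either of the libraries Rxra cKO atRA+PKCi replicate 1 (-2.04) and wild-type atRA+PKCi replicate 2 (-1.69). Rdh10 was at 15.9 and 25.4 CPM in FBS and 18.1 and 18.4 CPM in atRA+PKCi, with a log2 fold change of -0.18 (SE 0.19, adjusted p = 0.472, edgeR) that was called without Rxra cKO FBS replicate 1 (-0.45) and whose sign turned without replicate 2 of that group (0.20). Without the latter library the Rdh10 interaction passed (-0.75), which it did not with all 8 (-0.37, SE 0.27, adjusted p = 0.37).

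Across the interaction test 5 of 8 genes passed, 3 with a more positive and 2 with a more negative effect in wild-type, where 24.6% of all genes tested passed (11.3% and 13.3%). The median interaction was 0.25 over the 8 genes and 0.01 over all genes.

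**Figure D2:**
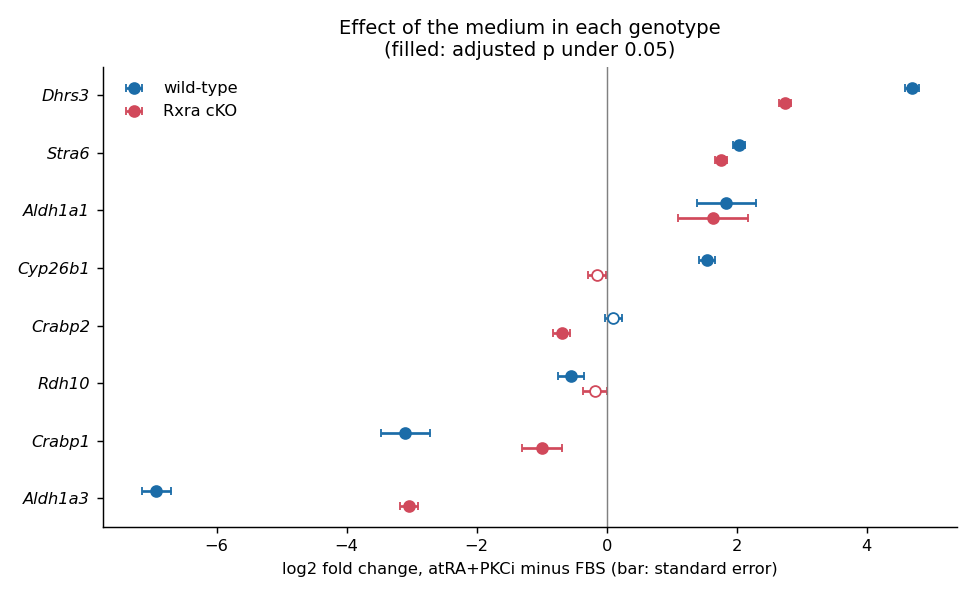
Log2 fold change from FBS to atRA+PKCi with its standard error for 8 genes in wild-type (blue) and Rxra cKO (red), with filled points for an adjusted p under 0.05. The points lie farthest apart for Aldh1a3 (-6.93 and -3.04), Crabp1 (-3.10 and -0.998), Dhrs3 (4.69 and 2.74) and Cyp26b1 (1.54 and -0.15), and close together for Stra6 (2.03 and 1.75).

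Between genotypes in FBS, 5 of 8 genes differed (4 higher and 1 lower in Rxra cKO), where 42.8% of all genes tested did (22.3% higher, 20.5% lower). Beside Aldh1a3 and Cyp26b1, Dhrs3 was higher by a log2 fold change of 0.80 (SE 0.11, adjusted p = 0.000412), Crabp2 by 0.74 (SE 0.13, adjusted p = 0.00183) and Rdh10 by 0.61 (SE 0.19, adjusted p = 0.03, edgeR). The Rdh10 difference rested on Rxra cKO FBS replicate 2, at 25.4 CPM, and was 0.23 and no longer called without it. It was also no longer called without wild-type FBS replicate 1 (0.52) or without either Rxra cKO atRA+PKCi library. Stra6 (log2 difference -0.03, SE 0.09, adjusted p = 0.795), Aldh1a1 (-1.20, SE 0.57, adjusted p = 0.126) and Crabp1 (0.20, SE 0.30, adjusted p = 0.626) did not pass.

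Between genotypes in atRA+PKCi, 7 of 8 genes differed (3 higher and 4 lower in Rxra cKO), where 43.2% of all genes tested did (23% higher, 20.2% lower). Along the pathway, Rxra cKO cells had less Stra6 (-0.31, SE 0.09, adjusted p = 0.0184), less Dhrs3 (-1.15, SE 0.08, adjusted p = 1.06e-05), less Aldh1a1 (-1.41, SE 0.42, adjusted p = 0.0257) and less Cyp26b1, and more Rdh10 (0.98, SE 0.19, adjusted p = 0.00349), more Crabp1 (2.30, SE 0.38, adjusted p = 0.00138) and more Aldh1a3, all as log2 fold changes from edgeR. Crabp2 did not pass (-0.05, SE 0.13, adjusted p = 0.781). The Stra6 call was lost without either Rxra cKO library of that medium (-0.31 and -0.29) or wild-type replicate 1 (-0.16), and the Aldh1a1 call without any 1 of the 4 atRA+PKCi libraries (-1.46 to -1.33). Against the 4 genes called lower here, DESeq2 called 3 lower and limma on the deposited normalized values called 2. The comparisons share libraries, so their lists are not independent of each other.

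A list of 38 further retinoid genes was read for context, of which 27 passed the filter. In wild-type 8 of these rose and 9 fell with atRA+PKCi, where 53.9% of all genes tested changed, in Rxra cKO 9 rose and 6 fell (43% of all genes), and 13 passed the interaction test (24.6% of all genes). Dhrs9, Sdr16c5 and Sdr16c6 encode enzymes that oxidize retinol, as RDH10 does. Dhrs9 was at 20.7 and 22.4 CPM in wild-type FBS and at 0.0641 and 0.095 CPM after the change of medium (2 and 3 counts), for a log2 fold change of -8.004 (SE 0.18, adjusted p = 1.15e-08, edgeR), and in Rxra cKO it was at 69.5 and 76.5 CPM in FBS and at 1.49 and 1.45 CPM in atRA+PKCi. Sdr16c6 had a log2 fold change of -6.17 in wild-type (SE 0.18, adjusted p = 3.29e-08) and of -1.05 in Rxra cKO (SE 0.12, adjusted p = 0.000181). Its neighbour Sdr16c5 had 0 counts in both wild-type atRA+PKCi libraries and 70 and 72 in FBS, and so was at least 27.7-fold lower, taking 3 counts per library as the floor. Rdh11 and Rdh12, which reduce retinaldehyde, fell as well, Rdh11 by a log2 fold change of -1.92 (SE 0.07, adjusted p = 6.71e-08, edgeR) and Rdh12 from 37 and 31 counts to 3 and 0. Adh7, which can also oxidize retinol, rose from 0.219 and 0.309 CPM to 1.604 and 1.77 CPM (log2 fold change 2.66, adjusted p = 0.00132). Of the others with the smallest p, Lipe (-1.75) and Fabp5 (-1.39) fell, and Tgm2 (2.05) and Nrip1 (1.37), both known as retinoic acid targets, rose. The interaction was called for all of these but Adh7 and Lipe, and also for Dgat1 (-0.39) and Rxra (-0.51). Lrat, which esterifies retinol, had an interaction of 2.58 (SE 0.70, adjusted p = 0.0285, edgeR).

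In anagen VI skin the same 9 genes were spread over different cell types. By the mean of the 2 mice, Crabp1, Crabp2 and Cyp26b1 were highest among named classes in dermal papilla-like cells, Aldh1a1 in fibroblast-like, Dhrs3 in endothelial-like and Stra6 in hair shaft cortex-like cells. Some alternative clusterings named a hair shaft medulla-like class, and Stra6 was highest there. For Dhrs3, outer root sheath-like cells were within counting error of the endothelial-like ones. After filters, 14458 and 13915 cells remained in the 2 mice, with median depths of 8869 and 10594 UMIs per cell, and 833 and 307 of these were removed as likely doublets. Clustering without the retinoid genes gave 37 clusters. Of these 12 stayed unnamed, and the rest were named from marker genes and fell into 14 classes. The cells had been sorted against markers of immune cells, endothelium, fibroblasts and melanocytes, and clusters with markers of all 4 types were present all the same. The fibroblast-like clusters 2 and 7 held 95.2% and 97.4% of their cells from mouse 1 and cluster 29, led by interferon genes, 92.7% from mouse 2. The libraries of the 2 mice shared 62 cell barcodes. Levels are UMIs of a gene per 1000000 UMIs of the summed class (CPM), given as mouse 1 and mouse 2. UMI levels carry no length correction, and so are compared between cells and not between genes.

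Stra6, the uptake receptor, was highest among named classes in hair shaft cortex-like cells, at 63.1 and 56.4 CPM, and next among the large classes in hair matrix-like cells, at 24.4 and 17.2 CPM. Outer root sheath-like cells, the layer continuous with the HFSC niche, had 4.04 and 3.14 CPM. Schwann-like cells had 63.3 CPM in mouse 1 and 5.37 in mouse 2, from 13 and 2 UMIs, and cannot be placed. The highest cluster of all was the unnamed cluster 3, led by Csta1, Foxq1, Tchh and Gpnmb, at 119 and 94.5 CPM, above every other cluster in both mice. In alternative clusterings the highest class was a hair shaft medulla-like one. Its mean was 139 CPM at higher resolution, 115 CPM with the stricter cell filter and 133 CPM with no doublet removal. With each cell thinned to 2000 UMIs, 21.2% and 18.4% of cluster 3 cells held a Stra6 UMI (66.8% and 61.0% unthinned), against 0.992% and 1.49% in the outer root sheath-like cluster 11 (2.77% and 3.90% unthinned). Median depths were 9577.5 and 12483 UMIs in cluster 3 and 7592 and 9870 in cluster 11.

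Rdh10 was highest in the mural or sheath-like class, at 34.7 and 40.8 CPM, a value that came from cluster 27. That cluster, led by Il17b, Lama1, Mia and Cnn1 with no marker of its class among its top 10 genes, had 46.0 and 58.8 CPM, while cluster 14 of the same class, led by the mural genes Rgs5 and Myh11, had 9.37 and 16.2 CPM (6 and 26 UMIs). Fibroblast-like cells had 13.6 and 16.0 CPM and outer root sheath-like cells 5.33 and 8.61 CPM. Melanocyte-like cells had the lowest mean, from 4.57 and 6.28 CPM (4 and 7 UMIs). Dhrs3, which acts the other way, was highest in endothelial-like cells at 90.2 and 102 CPM and in outer root sheath-like cells at 87.7 and 85.3 CPM, followed by immune-like cells at 69.9 and 78.1 CPM. These 3 classes kept that order in both mice, but the endothelial-like values came from only 32 and 96 UMIs. Their exact Poisson 95% intervals were 61.7 to 127 and 82.5 to 124 CPM. Those of outer root sheath-like cells were 80.5 to 95.4 and 79.6 to 91.2 CPM, so counting error does not part the first 2 classes. Inner root sheath-like cells had 20.2 and 22.5 CPM, the lowest mean of the 14 classes. In cluster 11 of the outer root sheath 20.6% and 16.2% of thinned cells held a Dhrs3 UMI (52.8% and 56.8% unthinned), against 4.21% and 4.83% in the inner root sheath-like cluster 1 (18.1% and 21.5% unthinned), whose median depths were 9821 and 10935.5 UMIs.

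The 3 dehydrogenases were found in different cells. Aldh1a1 was a fibroblast gene here, with 83.8 and 137 CPM in fibroblast-like cells, which held 85.3% and 76.8% of its UMIs, against 2.26 and 5.16 CPM in outer root sheath-like cells. Fibroblast-like cells were also the largest named class, with 5128 of 13625 and 4801 of 13608 cells. Skeletal muscle-like cells came next with 40.0 and 94.4 CPM, and the unnamed cluster 24, led by Zfpm2 and Ppp2r2b, had the highest level of any cluster at 234 and 395 CPM. Aldh1a2 gave only 287 UMIs in all. Its highest class with UMIs in both mice was immune-like, at 7.17 and 8.76 CPM (8 and 22 UMIs), followed by outer root sheath-like at 5.97 and 2.43 CPM (37 and 24 UMIs). Within the outer root sheath, cluster 15, led by Krt6a and Pthlh, held 35 and 12 of these UMIs, at 21.1 and 7.19 CPM.

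Aldh1a3 gave 21201 UMIs in all, and 53.2% and 62.1% of them lay in unnamed clusters. Cluster 3 alone had 738 and 977 CPM, above every other cluster in both mice. In that cluster 55.8% (95% exact interval 52.0 to 59.5) and 60% (55.3 to 64.6) of thinned cells held an Aldh1a3 UMI, with 76.4% and 83.3% unthinned, against 1.78% and 1.07% in inner root sheath-like cluster 1, with 7.95% and 8.51% unthinned. Aldh1a3 is itself among the top 10 genes of cluster 3, although it was not used to form it. At a higher clustering resolution a medulla-like class was named, and Aldh1a3 was highest there at a mean of 1196 CPM. Dermal papilla-like cells had 89.95 and 94.5 CPM, hair shaft cortex-like cells 48.4 and 125 CPM, and fibroblast-like cells 82.6 and 39.4 CPM, which overlapped in order between the mice. Schwann-like cells had 297 CPM in mouse 1 and 8.05 in mouse 2, from 61 and 3 UMIs, and cannot be placed. In mouse 1 the fibroblast value came largely from cluster 7, led by Adamts16, Limch1 and Pi16, with 2573 of 3873 UMIs at 247 CPM, whereas in mouse 2 that cluster had 37 cells, which held 96 of 2302 UMIs, at 226 CPM.

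The 2 binding proteins met in the dermal papilla and parted elsewhere. Crabp1 was at 1727 and 1129 CPM in dermal papilla-like cells, above each of the 13 other classes in both mice, and these cells held 47.2% and 47.9% of its UMIs. Fibroblast-like cells followed at 50.98 and 46.3 CPM, mostly from cluster 0 at 494 and 258 CPM. Among epithelial classes hair matrix-like cells had the most Crabp1, 32.5 and 28.7 CPM, against 4.84 and 3.26 CPM in inner root sheath-like cells. Of thinned dermal papilla-like cells 66.7% and 51.7% held a Crabp1 UMI (71.9% and 64.5% unthinned), against 1.22% and 0.322% in cluster 1 (4.58% and 3.57% unthinned), with median depths of 4211 and 6424 UMIs in the dermal papilla.

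Crabp2 was at 101 and 58.2 CPM in dermal papilla-like and at 69.3 and 29.1 CPM in suprabasal-like cells, 2 classes whose values overlapped between the mice. No other class was above 8.05 CPM in either mouse, outer root sheath-like cells being at 6.30 and 5.87 CPM and fibroblast-like cells at 1.88 and 0.753 CPM. The unnamed cluster 25, led by Wfdc18, Spp1 and the milk protein gene Csn3, had 121 and 56.1 CPM (76 and 34 UMIs). Of thinned dermal papilla-like cells 17.2% and 9.26% held a Crabp2 UMI (30.8% and 25.4% unthinned), against 0.405% and 0.107% in cluster 1 (1.125% and 1.37% unthinned).

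Cyp26b1 was highest in dermal papilla-like cells, at 50.9 and 56.0 CPM and above each of the 13 other classes in both mice. Next were fibroblast-like cells, at 15.6 and 24.0 CPM. They held 72.1% and 71.8% of its UMIs, being 5128 of 13625 and 4801 of 13608 cells. Among fibroblasts cluster 17, led by Cdh4, Ccl19 and Ndufa4l2, had 63.4 and 103 CPM. The epithelial classes of the lower follicle were all near 1 CPM: 1.10 and 0.727 in hair matrix-like, 0.969 and 0.911 in outer root sheath-like and 1.08 and 1.23 in inner root sheath-like cells. In hair matrix-like cluster 9, 0.160% and 0.138% of thinned cells held a Cyp26b1 UMI (1.18% and 1.20% unthinned), against 9.86% and 15.7% in cluster 17 (20.4% and 32.4% unthinned), with median depths of 11735.5 and 15023 and of 11816 and 15261 UMIs.

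**Figure D3:**
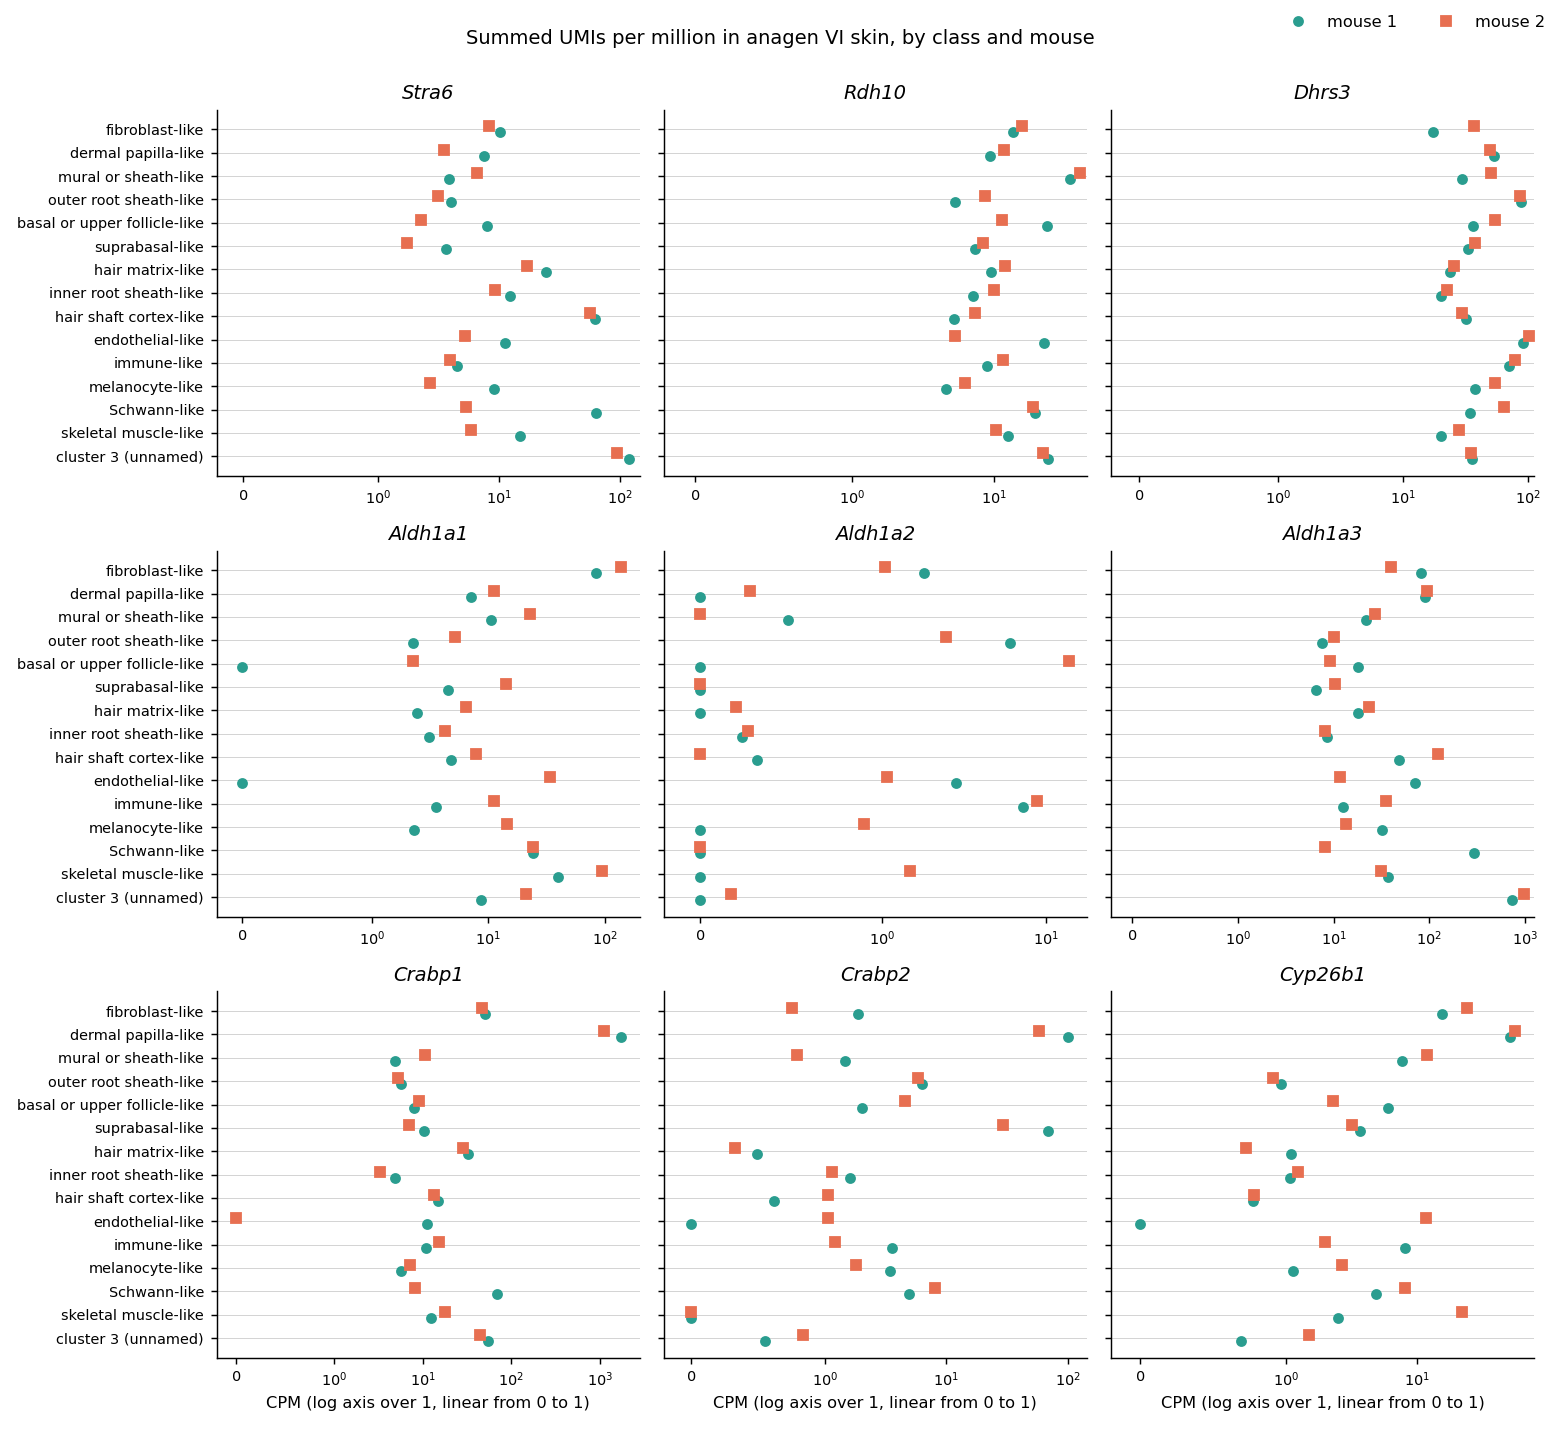
Level in CPM of each of the 9 genes in 14 named classes and in the unnamed cluster 3 of anagen VI skin, for mouse 1 (circles) and mouse 2 (squares), on an axis that is logarithmic above 1. Crabp1 peaks in dermal papilla-like cells (1727 and 1129 CPM), Aldh1a1 in fibroblast-like cells (83.8 and 137), Rdh10 in the mural or sheath-like class (34.7 and 40.8, from its cluster 27), and Aldh1a3 and Stra6 in cluster 3.

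Over the 37 clusters, the genes whose levels followed each member most closely, by Pearson correlation among 8963 genes, were Unc5b, Mipep and Carnmt1 for Stra6 (0.78, 0.77 and 0.76), Gria3, Mme and Igfbp2 for Rdh10 (0.73, 0.70 and 0.67) and Cdc42ep3, Fggy and Dock5 for Dhrs3 (0.74, 0.71 and 0.69). For Aldh1a1 they were Lmx1a, AW551984 and Gm31378 (each 0.90), for Aldh1a2 Nfil3, Bicd2 and Thsd1 (0.64, 0.57 and 0.56), and for Aldh1a3 Prr5l, Krt23 and Krtap15 (0.67, 0.60 and 0.57). For Crabp1 they were Rspo4, Frzb and Scube1 (0.78, 0.75 and 0.74), for Crabp2 Kcnd2, Slc5a7 and Sh3d21 (0.76, 0.71 and 0.69), and for Cyp26b1 Lepr, Clec11a and Zic1 (0.81, 0.79 and 0.79). The clusters share libraries and depth, and these values are a description.

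To test differences between compartments, UMIs were summed per mouse in 5 of them (fibroblast, dermal papilla, outer root sheath, inner follicle and upper epithelium), and a gene was called at an adjusted p under 0.01 (edgeR's quasi-likelihood test, Benjamini-Hochberg over 15662 genes) with an absolute log2 fold change over 1. Clusters were formed without the 9 genes, from the same cells. Against the mean of the 3 epithelial compartments, fibroblasts had more Aldh1a1 (4.64, SE 0.31, adjusted p = 3.19e-07), Cyp26b1 (3.98, SE 0.20, adjusted p = 3.86e-08), Crabp1 (2.60, SE 0.19, adjusted p = 5.41e-07), Aldh1a3 (2.49, SE 0.23, adjusted p = 3.6e-06) and Rdh10 (1.04, SE 0.18, adjusted p = 0.000423), and less Crabp2 (-1.97, SE 0.42, adjusted p = 0.00197). These are 6 of 9 genes, where 36.6% of all genes tested were called (22.4% higher, 14.2% lower), and the median log2 difference was 1.04 over the 9 genes and -0.015 over all genes. Without the 3 fibroblast-like clusters that came mostly from 1 mouse, a choice made after seeing the data, Aldh1a3 fell to 0.17 and Crabp2 to -1.52, both no longer called, and Stra6 was called at 1.53. The Crabp2 call was also lost without the fibroblasts of mouse 2 (-1.46), and the Rdh10 call without the fibroblasts of mouse 2 (0.89) or the outer root sheath of mouse 1 (0.97) and with no doublet removal (0.90). The epithelial sums leave out the unnamed cluster 3, and where a medulla-like class was named the Aldh1a3 difference was 1.19 to 1.61, still called. Dhrs3 did not pass (-0.41, adjusted p = 0.151) but was called without the fibroblasts of mouse 2 (-1.08).

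Between the 2 dermal compartments, the dermal papilla had more Crabp2 than fibroblasts (log2 difference 5.49, SE 0.50, adjusted p = 1.56e-05), more Crabp1 (4.44, SE 0.27, adjusted p = 1.09e-06) and less Aldh1a1 (-3.98, SE 0.49, adjusted p = 0.000131, edgeR). These are 3 of 9 genes, where 18% of all genes tested were called (8.02% higher, 9.97% lower), with medians of 0.17 over the 9 genes and -0.071 over all. Cyp26b1 was higher by 0.999 with an adjusted p of 0.00747 and lay just under the fold limit. With the mouse as a block 5 genes were called, the additions being Cyp26b1 (1.01) and Stra6 (-1.27). Without the 3 one-mouse clusters 6 were called, with Aldh1a3 at 2.50, Stra6 at -1.99 and Rdh10 at -1.13. Without the fibroblasts of mouse 2 the Dhrs3 difference was called at 1.15 and that of Cyp26b1 at 1.38.

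Within the follicle the outer root sheath differed from the inner follicle (matrix, inner root sheath and shaft cortex) in 6 of 9 genes, where 20.9% of all genes tested were called (12.1% higher, 8.78% lower), with medians of -0.18 and -0.015. The outer root sheath had more Aldh1a2 (4.57, SE 0.75, adjusted p = 0.000761), more Crabp2 (2.85, SE 0.55, adjusted p = 0.00207) and more Dhrs3 (1.83, SE 0.29, adjusted p = 0.000638). It had less Stra6 (-2.73, SE 0.38, adjusted p = 0.00028), less Crabp1 (-1.76, SE 0.27, adjusted p = 0.00056) and less Aldh1a3 (-1.49, SE 0.32, adjusted p = 0.00416, edgeR). The Aldh1a2 sums were small, 37 and 24 UMIs against 5 and 6, and its call was lost without the inner follicle of mouse 1 (4.42). Calls of Aldh1a3 were lost without the inner follicle of mouse 2 (-1.27) and without the outer root sheath of mouse 1 (-1.38) or mouse 2 (-1.66), and those of Crabp2 without the inner follicle of mouse 2 (2.61) or the outer root sheath of mouse 2 (2.96). With the stricter cell filter 2 of the 9 genes were called higher in the outer root sheath and 3 lower. Cluster 3, with the most Aldh1a3, had no name and is not in the inner follicle, and where a medulla-like class was named the Aldh1a3 difference was between -4.86 and -4.15.

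Between the upper epithelium (basal or upper follicle and suprabasal) and the outer root sheath 1 of 9 genes was called, where 12% of all genes tested were (6.95% higher, 5.04% lower), with medians of 0.40 and -0.03. This was Crabp2, at 57.9 and 26.4 CPM in upper epithelium and 6.30 and 5.87 CPM in the outer root sheath, a log2 difference of 2.78 (SE 0.48, adjusted p = 0.00185, edgeR). The call was lost without the outer root sheath of mouse 1 (2.87) or mouse 2 (2.67) and without the upper epithelium of mouse 1 (2.08). Dhrs3, at 33.5 and 39.7 CPM against 87.7 and 85.3 CPM, was lower by -1.25 with an adjusted p of 0.0125 and was called with the mouse as a block (-1.26), as was Aldh1a1 (1.15).

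**Figure D4:**
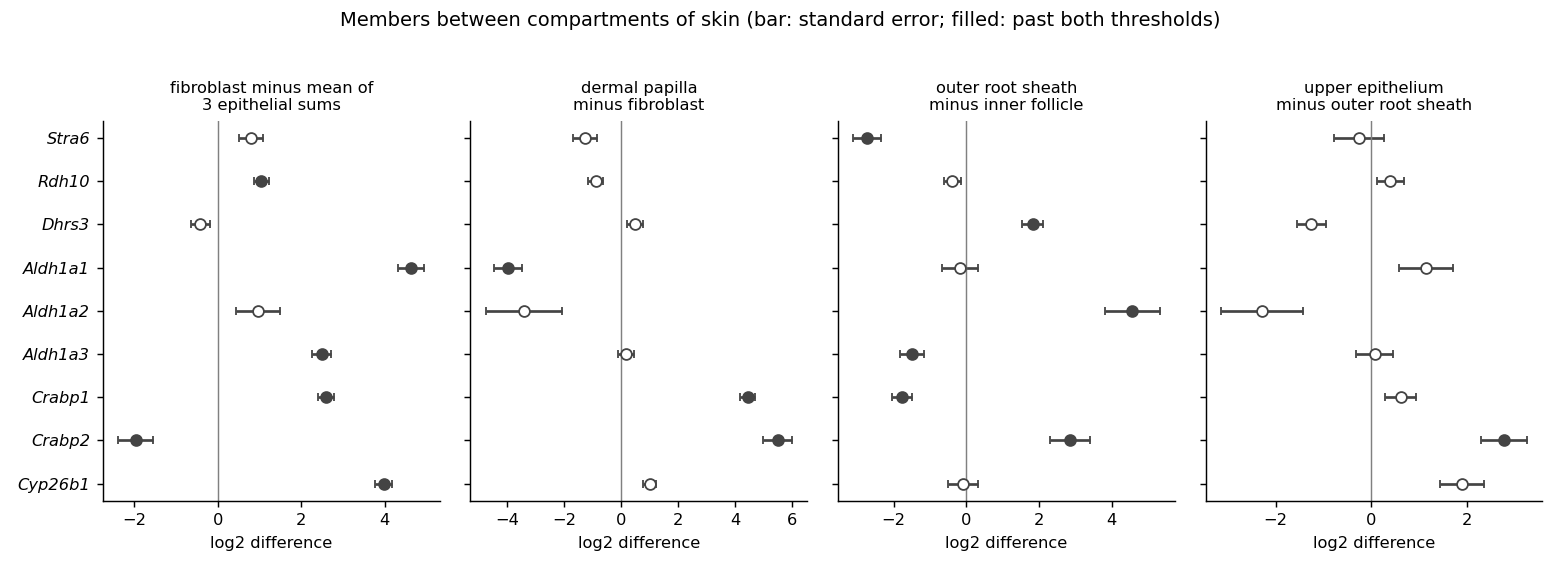
Log2 differences of the 9 genes, with standard errors, in 4 comparisons of summed compartments of skin from 2 mice (filled points passed both thresholds). Aldh1a1 (4.64) and Cyp26b1 (3.98) lie farthest to the fibroblast side, Crabp2 (5.49) and Crabp1 (4.44) to the dermal papilla side, and Stra6 (-2.73) to the inner follicle side.

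The cultured HFSC matrices held 449 and 208 barcodes, of which 222 and 78 were kept with a single hashtag. No cell with the FBS hashtag was kept, and atRA+PKCi had 2 cells in mouse 1 and 1 in mouse 2, so that the medium effect seen in the RNA-seq libraries could not be tested here. By the study's description Rspo, BMP and RARi were given on top of atRA and PKCi, and the key to the hashtags writes BMP with no number. From B-27 to BMP, retinoic acid, the inhibitor and BMP therefore changed together and cannot be told apart. The 5 media with at least 5 cells in both mice were B-27 (5 and 10 cells), Rspo (5 and 6), BMP (113 and 13), Rspo+BMP (92 and 27), and Rspo+BMP with a RAR inhibitor (RARi, 5 and 21). All 6 keratinocyte markers were detected in every condition, and fibroblast markers summed to between 0 and 5.29 CPM. Only 4 of the 9 genes (Stra6, Dhrs3, Aldh1a3 and Crabp2) passed the filter among 6265 genes, and values are UMIs per 1000000 (CPM) for mouse 1 and mouse 2, with exact Poisson intervals at 95% that cover counting error only.

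Stra6 was at 31.8 (11.7 to 69.1) and 41.0 (18.7 to 77.8) CPM in B-27 and at 190 (176 to 205) and 188 (152 to 229) CPM in BMP. The few atRA+PKCi cells had 174 (92.8 to 298) and 317 (173 to 532) CPM, above both B-27 values though from 13 and 14 UMIs. From B-27 to BMP the log2 difference in Stra6 was 2.47 (SE 0.61, adjusted p = 0.0106, edgeR), just outside the threshold of 0.01. Dhrs3 was at 26.5 and 18.2 CPM in B-27 and at 116 and 137 CPM in BMP, a log2 difference of 2.61 (SE 0.61, adjusted p = 0.00746, edgeR). In the atRA+PKCi cells it was at 93.9 (37.7 to 193) and 136 (49.9 to 296) CPM, from 7 and 6 UMIs.

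Aldh1a3 was found almost only in B-27, at 164 (111 to 233) and 31.9 (12.8 to 65.7) CPM, from 31 and 7 UMIs. BMP had 4 and 0 UMIs, Rspo+BMP had 2 and 0, and the other media had none. The log2 difference from B-27 to BMP was -6.30 (SE 0.97, adjusted p = 0.000261, edgeR). Crabp2 was at 5.29 and 9.10 CPM in B-27, from 1 and 2 UMIs, and at 29.5 and 35.2 CPM in BMP, with a log2 difference of 2.21 (SE 0.95, adjusted p = 0.155) that did not pass. Thus 2 of 4 genes were called from B-27 to BMP, 1 higher and 1 lower, where 5.71% of genes tested were called (0.431% higher, 5.28% lower), and the medians were 2.34 over the 4 genes and 0.0088 over all. The calls rest on few cells: that of Dhrs3 was lost without either mouse of B-27 (2.82 and 2.50), of BMP (2.68 and 2.64) or of Rspo+BMP (2.65 and 2.66), and that of Aldh1a3 without either mouse of BMP (-8.64 and -6.02), while without B-27 of mouse 1 Aldh1a3 no longer passed the filter.

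The other 5 genes did not pass the filter on these sums, several of which held few cells. Cyp26b1 gave 73 and 24 UMIs in BMP (19.7 and 47.0 CPM) and 54 and 10 in Rspo+BMP (20.7 and 14.0 CPM). With RARi it gave 1 and 1 UMIs (10.4 and 1.66 CPM) from 5 and 21 cells, and the difference was not tested. Rdh10 had between 0 and 21 UMIs in each sum. Aldh1a1 had 1 UMI in all, in Rspo+BMP of mouse 1, and Aldh1a2 had between 0 and 2 UMIs in each sum. Crabp1, which marked the dermal papilla in skin, had none, and its highest upper limit among sums of at least 5 cells was 38.4 CPM.

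With the RAR inhibitor, Dhrs3 was at 198 and 49.8 CPM against 152 and 198 CPM in Rspo+BMP, with no common direction in the 2 mice. Its log2 difference was -1.01 (SE 0.50, adjusted p = 0.959, edgeR), that of Stra6 -0.25 (SE 0.51, adjusted p = 0.967) and that of Crabp2 -1.74 (SE 0.92, adjusted p = 0.959). None of the 4 genes was called, where 0% of the 6265 were, with 232 genes at an unadjusted p under 0.05 and 0 calls by DESeq2. Adding Rspo to BMP likewise gave 0 of 4 calls and 0% of all genes by edgeR, with 44 at an unadjusted p under 0.05 and 0 calls by DESeq2. There the log2 differences were 0.65 for Stra6 (SE 0.50), 0.41 for Dhrs3 (SE 0.45) and -0.81 for Crabp2 (SE 0.55). With 5 cells of mouse 1 under RARi, these tests do not show that the media act alike.

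**Figure D5:**
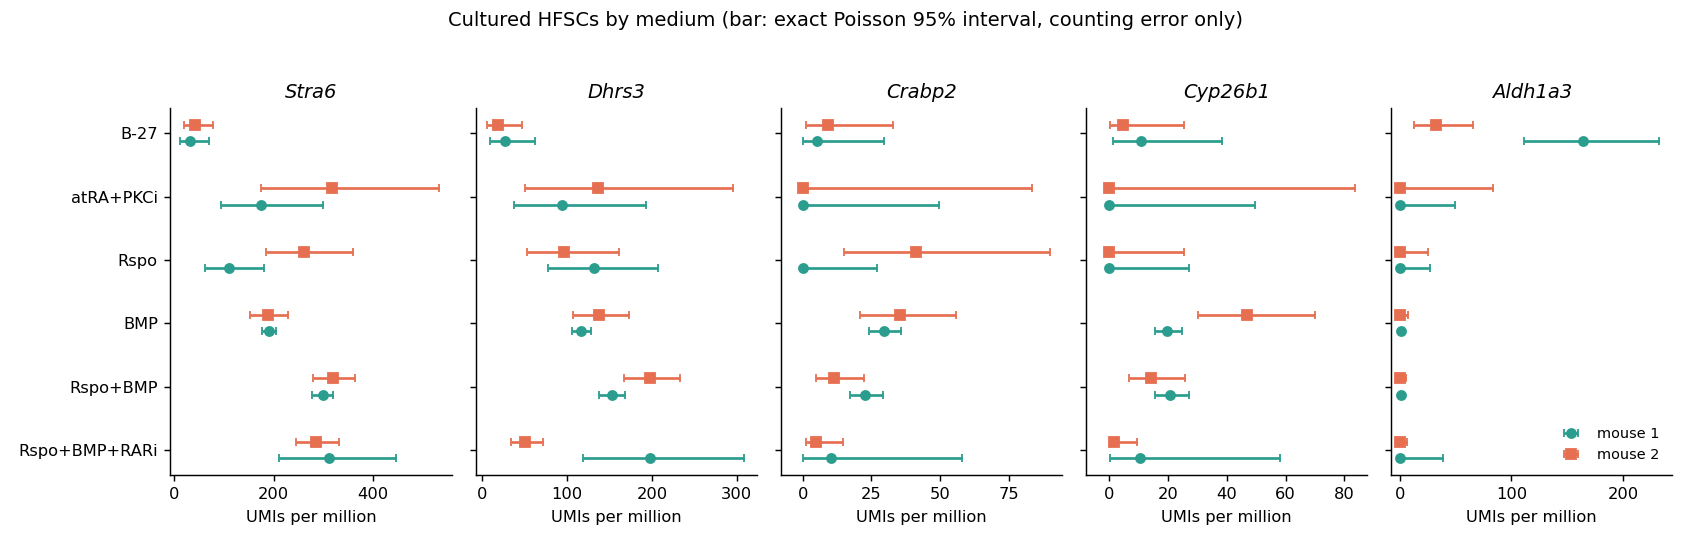
Level in CPM in cultured HFSCs of mouse 1 and mouse 2 by medium, with exact Poisson 95% intervals for counting error. In B-27, Stra6 (31.8 and 41.0) and Dhrs3 (26.5 and 18.2) are low and Aldh1a3 (164 and 31.9) is high relative to BMP.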

How the data were processed

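RNA-seq reads had been quantified with Salmon 1.4.0 on mm10, and the authors deposited estimated counts per gene without normalization, which were rounded here to whole numbers. A second deposited table, a normalized signal per gene and library, entered alternative fits. The skin and HFSC matrices that the authors deposited hold UMI counts made with Cell Ranger 7.0.1, per the labels. Gene positions and exonic lengths were from GENCODE M21 (GRCm38). Samples of ATAC-seq (8) and CUT&RUN (5) were not used here.

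The 8 libraries were fitted together by the quasi-likelihood method of edgeR 4.0.16 after filterByExpr and TMM scaling, with calls at an adjusted p under 0.05. This method gives no standard error. The SE printed with its results, for libraries and for summed cells, is the absolute log2 fold change divided by the square root of the F statistic. Per the labels, which number the mouse, same-numbered FBS and atRA+PKCi cultures came from the same mouse within a genotype. Their deviations from the group means correlated at 0.135 for the wild-type pairs and -0.000821 for the Rxra cKO pairs, and the main fit had no block.

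Skin cells with at least 500 genes, 1000 UMIs and under 10% mitochondrial UMIs were clustered with scanpy 1.11.5 without the retinoid genes, after removal of doublets (5.76% and 2.21%) by its Scrublet function. Classes were named from fixed marker lists. Cultured cells were assigned to hashtags with Seurat 5.3.0, and those with 2 hashtags were dropped. UMIs were summed per mouse and tested with edgeR with limits of 0.01 for the adjusted p and 1 for the absolute log2 fold change. Shares of cells were computed after thinning to 2000 UMIs.

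The genes named were the 9 members and, of 38 other retinoid genes, at most the 10 with the smallest p in the wild-type medium effect, and those called in the interaction. Some genes that fall under this rule are not reported here. Members and lists were chosen with earlier results of these data known. The tests were tried on simulated data. Alternatives were DESeq2 1.42.0, limma 3.58.1 on log2 values with a pseudocount of 1 or 0.5, no filter, other thresholds, a replicate block, other cell filters and clusterings, and leaving out each library or mouse.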

Additional observations from a re-analysis of the deposited data

Results flagged for a closer look

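The effect of the medium differed between wild-type and Rxra cKO cultures for 5 of the 8 genes tested, by the interaction term of edgeR's quasi-likelihood fit over all genes. Written as the log2 effect in wild-type minus that in Rxra cKO, the difference was 1.95 for Dhrs3 (adjusted p = 2.66e-05), 1.69 for Cyp26b1 (adjusted p = 0.000325) and 0.80 for Crabp2 (adjusted p = 0.0138). It was -3.88 for Aldh1a3 (adjusted p = 4.91e-05) and -2.10 for Crabp1 (adjusted p = 0.0147). In Rxra cKO, Dhrs3 kept a log2 increase of 2.74 of the 4.69 seen in wild-type and Cyp26b1 had none that passed, while Aldh1a3 and Crabp1 fell by less than in wild-type. For Crabp2 the fall was in Rxra cKO. Of the HFSC markers, Krt15 was at 4576 and 4430 CPM in wild-type atRA+PKCi and at 251 and 245 CPM in Rxra cKO atRA+PKCi. Sox9 was at 173 and 156 CPM in the former and at 88.4 and 92.1 CPM in the latter. Nfatc1 was lower in wild-type there (0.834 and 1.49 against 5.19 and 2.83 CPM), and the Cd34 values were between 0.385 and 0.596 CPM. The part of these differences in the retinoid genes was not tested. No group had more than 2 libraries or mice, so single libraries far from the rest of their group were not looked for.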

How the results depend on the processing

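Over 48 called results of the 9 genes and 764 alternative fits, 679 kept their call, 85 kept the direction but lost the call, and 0 turned. A fit in which the gene did not pass the filter is not counted among these. Some of the fits change only the threshold or leave out a library or mouse that is not in the comparison, so a kept call says little there. At the stricter limits used for single cells, members called were 3 for the medium effect in Rxra cKO, 1 and 4 for genotype in FBS and atRA+PKCi, and 3 for the interaction. Leaving out 1 library gave 3 to 6 members for the interaction, the lowest without Rxra cKO atRA+PKCi replicate 1. The replicate block (same mouse) left 4 members called for the medium effect in Rxra cKO, and changed no other member count of the bulk comparisons. Among the other retinoid genes it gave 5 higher and 7 lower for the interaction, against 4 and 9 in the main fit. For genotype in atRA+PKCi it gave 8 higher and 8 lower of them, against 8 and 9. In skin, dermal papilla against fibroblast gave 6 members at an adjusted p under 0.05 with no minimum fold, 6 with no filter, 6 with the stricter cell filter, 5 with the replicate block, 6 without the one-mouse clusters and 3 to 5 when leaving out 1 mouse of a compartment. Upper epithelium against outer root sheath gave 3 with DESeq2, 3 at the looser threshold, 2 at higher resolution, 3 without doublet removal, 5 with no filter, 3 with the replicate block, 3 with the stricter cell filter, 3 without the one-mouse clusters and 0 to 3 when leaving out 1 mouse. BMP against B-27 gave 0 to 3. The sign of results that were not called turned in some fits. Leaving out 1 library in turn, these ranged from -0.061 to 0.267 for Crabp2 and from -0.045 to 0.247 for Rxra in the wild-type medium effect, from -0.451 to 0.197 for Rdh10 in Rxra cKO, from -0.092 to 0.0069 for Stra6 between genotypes in FBS, and from -0.25 to 0.916 for Aldh1a1 in the interaction. Leaving out 1 mouse of a condition or compartment, they ranged from -2.63 to 1.899 for Aldh1a3 with Rspo, from -1.079 to 0.0496 for Dhrs3 in fibroblasts, from -0.241 to 0.765 for Aldh1a3 in dermal papilla, from -0.896 to 0.214 for Aldh1a1 and from -0.253 to 0.085 for Cyp26b1 in outer root sheath, and from -1.02 to 0.312 for Stra6, -0.051 to 1.85 for Aldh1a1 and -0.069 to 0.242 for Aldh1a3 in upper epithelium. Aldh1a3 also turned with RARi by DESeq2 (0.256) and in upper epithelium at higher resolution (-0.242). The cause was not tested. Having 2 mice per group and few cultured cells limits what can be seen of Aldh1a1, Aldh1a2, Crabp1 and all culture values.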
